A study of Mus musculus with 16 samples.

Results

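The 10 angiogenic ligands described here are VEGFA, VEGFB, VEGFC, FIGF (the array's older name for VEGFD), PGF, ANGPT1, ANGPT2, ANGPTL4, HGF and PDGFA, chosen by name out of 30854 target names on a mouse whole-genome array. They were represented by 17 probes, and 9 of the 10 were detected well enough to be among the 14829 genes tested. Embryonic stem (ES) cells of the mouse, which can form all tissues of the embryo, had been differentiated for 7 days on a monolayer of PA6, a line of stromal cells derived from murine bone marrow. In parallel, PA6 monolayers had been kept alone in the same serum-free medium. Each kind of culture received no growth factor (-GFs), recombinant FGF2 at 20 ng/ml or recombinant BMP4 at 10 ng/ml, with the factor given for 3 days according to the labels, although the source names speak of its presence for 7 days. For BMP4 the dose in the study's methods is lower than the labelled one. There were 7 arrays of co-cultures, of which 2 were -GFs, 3 FGF2 and 2 BMP4, and 9 arrays of PA6 alone, 3 for each condition. The ES cells of the study were of a knock-in line whose tau promoter drives a fluorescent reporter, so all co-cultures share 1 ES line and 1 stromal line, both murine. The probes cannot tell an ES-derived transcript from a stromal one, and in these bulk samples fewer cells of a type and less RNA per cell cannot be told apart.

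New vessels are built by endothelial cells that read secreted ligands through tyrosine kinase receptors. VEGFA is the main mitogen and survival factor of endothelium and signals through KDR, whereas VEGFB and PGF bind FLT1. VEGFC and VEGFD act on FLT4, the receptor that guides lymphatic endothelium, and after proteolytic processing VEGFC also acts on KDR. The angiopoietins share the receptor TEK, on which ANGPT1 acts as an agonist that quiets vessels and ANGPT2 often as an antagonist. HGF is secreted by mesenchymal cells and acts on MET, PDGFA acts on PDGFRA of mesenchymal and glial precursors, and ANGPTL4 inhibits lipoprotein lipase and modulates vessel permeability. Stromal layers that support stem cells are a well known source of such ligands.

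The share of probes detected per array ranged from 37.3% to 47.0%, and the median intensity of an array lay between 177.9 and 232.2 before normalization. Levels are given below as normalized log2 intensities, and a change is a difference of log2 levels with its standard error (SE). A gene was called when its adjusted p was under 0.1 and its change exceeded 1 in size. In every PA6 group 9 or 10 of 10 stromal fibroblast markers were detected on all arrays. In every co-culture group 9 were, so their detection did not set PA6 apart from co-cultures. In co-cultures the summed raw intensity of these markers was 69740 to 84320 without growth factors, against 263300 to 308700 in PA6. Of 10 endothelial markers 5 were tested, and their summed intensity was 3910 to 4878 in co-cultures without growth factors, 6780 to 8139 with FGF2 and 5658 to 6322 with BMP4, compared with 842.7 to 1499 on the PA6 arrays. With each factor 1 of the 5 was called higher in co-cultures. In the same order of co-culture groups, 4, 3 and 5 of them were detected on all arrays. Markers of other cell types also moved in co-cultures. The summed pluripotency markers stood at 11950 to 12190 without factors, 53110 to 57270 with FGF2 and 21640 to 33700 with BMP4, and the epidermal markers at 4099 to 5454, 5882 to 7963 and 21180 to 32920 in the same order. Of 9 pluripotency markers tested, 8 were called higher with FGF2 and 4 with BMP4. Of 9 epidermal markers tested, 2 were called higher with FGF2 (median change -0.24) and 5 with BMP4 (median change 1.65). The neural markers went down, from 38810 to 51900 without factors to 25530 to 28260 with FGF2 and 20340 to 26890 with BMP4, and 2 of 6 tested were called lower with each factor. The adipocyte markers summed to 2480 to 4903, 2854 to 4512 and 3519 to 19600. The part of these cell types in the ligand results below was not tested.

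Promoter windows of 7 of the 10 ligands were found in a RefSeq table on assembly GRCm38.p6. The 250 bases upstream of the outermost annotated start are shown for the 2 ligands whose BMP4 response differed between both kinds of culture, Vegfc and Pdgfa, and for the 2 most reduced in co-cultures, Vegfd and Hgf. Each is written 5′ to 3′ on the strand of the gene, with capitals marking matches, on either strand, to a TATA box (TATAAA), a GC box (GGGCGG), a GC-rich sequence described for BMP-activated SMAD proteins (GGCGCC) or the core of a hypoxia response element (ACGTG).
Vegfc, chr8:54077282-54077531, plus strand: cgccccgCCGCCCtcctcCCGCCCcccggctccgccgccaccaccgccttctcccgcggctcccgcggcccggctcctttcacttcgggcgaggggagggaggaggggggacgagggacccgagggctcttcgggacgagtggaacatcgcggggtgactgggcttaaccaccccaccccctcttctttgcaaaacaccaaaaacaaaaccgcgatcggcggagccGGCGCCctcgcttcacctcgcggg
Pdgfa, chr5:138994945-138995194, minus strand: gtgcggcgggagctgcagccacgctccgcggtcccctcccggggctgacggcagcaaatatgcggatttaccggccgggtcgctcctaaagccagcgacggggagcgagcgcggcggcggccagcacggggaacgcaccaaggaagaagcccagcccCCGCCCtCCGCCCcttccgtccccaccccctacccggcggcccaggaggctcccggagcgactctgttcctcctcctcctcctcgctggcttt
Vegfd, chrX:164373272-164373521, plus strand: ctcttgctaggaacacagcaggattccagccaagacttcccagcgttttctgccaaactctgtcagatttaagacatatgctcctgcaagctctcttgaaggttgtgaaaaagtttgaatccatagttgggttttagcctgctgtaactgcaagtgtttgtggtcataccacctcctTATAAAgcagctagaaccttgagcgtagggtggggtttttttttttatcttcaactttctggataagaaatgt
Hgf, chr5:16553245-16553494, plus strand: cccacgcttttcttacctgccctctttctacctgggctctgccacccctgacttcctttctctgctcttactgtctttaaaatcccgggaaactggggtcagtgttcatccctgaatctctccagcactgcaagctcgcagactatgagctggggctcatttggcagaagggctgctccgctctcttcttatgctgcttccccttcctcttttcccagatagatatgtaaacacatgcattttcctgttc
The Vegfc and Pdgfa windows held 30 and 28 CpG dinucleotides, more than 94.1% and 92.4% of the 32851 windows in the table, and 2 GC boxes each, a motif present in 32.7% of all windows. Vegfc also carried 1 copy of GGCGCC, which 9.59% of all windows hold. By contrast the Vegfd window held 2 CpG and a TATA box (12.4% of all windows), and the Hgf window held 4 CpG and none of the motifs, whereas the median window held 6 CpG. None of the 7 ligand windows contained ACGTG, which occurs in 16.6% of all windows. These matches describe the printed letters and say nothing of binding.

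VEGFC, the ligand of lymphatic endothelium, was the only member called with both factors in co-cultures. Its level was 8.82 and 8.81 in the co-cultures without growth factors, 10.14, 9.91 and 10.03 with FGF2, and 10.37 and 10.26 with BMP4. Every co-culture that had received a factor stood above every one that had not. VEGFC rose by 1.21 ± 0.16 (SE) with FGF2 (adjusted p = 0.0105, limma) and by 1.50 ± 0.18 with BMP4 (adjusted p = 0.014), which is 2.32-fold and 2.83-fold. FGF2 called 7.42% of all genes tested and 2 of the 9 members, and BMP4 called 3.75% of all genes and 1 of the 9. The rise with BMP4 missed the threshold when BMP4 replicate 1 was left out (1.44, adjusted p = 0.109), and the rise with FGF2 measured 0.98 after median scaling and 1.0 without background correction, where it was not called. Arrays next to each other in the deposited table formed 3 runs of columns, and within the runs that held both conditions the FGF2 change was 1.32 and 1.22 and the BMP4 change 1.45. BMP4 and FGF2 cultures differed by 0.29 (95% interval -0.10 to 0.67, adjusted p = 0.497).

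On the 9 PA6 arrays VEGFC was never detected, so it was retained for testing through the co-culture groups alone. Its raw intensity in PA6, 118 to 178.9, lay within the range of undetected probes, against 595.7 to 1424.5 on the co-culture arrays. Co-cultures thus exceeded PA6 by at least 4.36-fold without growth factors, at least 9.34-fold with FGF2 and at least 11-fold with BMP4, where the bound is set by the lowest detected signal on the PA6 arrays. The fitted response of VEGFC was larger in co-cultures than in PA6 by 1.28 ± 0.21 for FGF2 (adjusted p = 0.00309) and by 1.43 ± 0.22 for BMP4 (adjusted p = 0.00319), although the PA6 side of this difference rests on signals below detection. FGF2 called 7.9% and BMP4 4.23% of all genes in these tests of the difference, and 3 and 2 of the 9 members.

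**Figure D1:**
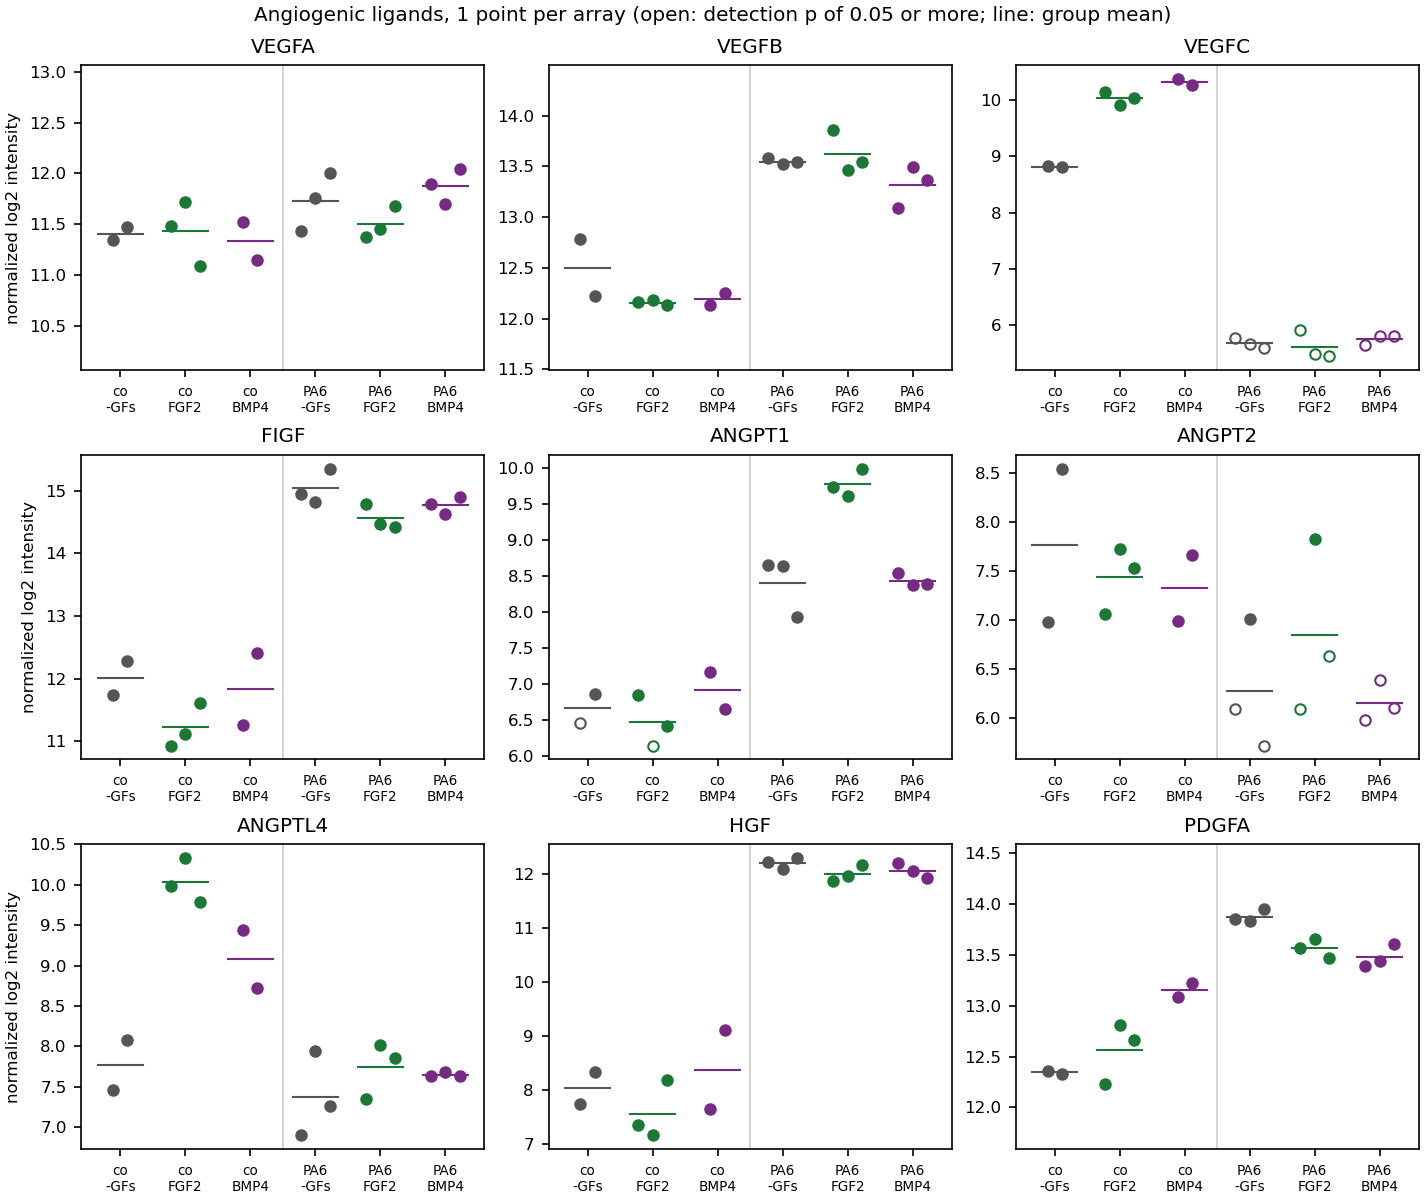
Normalized log2 intensity of the 9 tested ligands on each of the 16 arrays (vertical axis), by culture and growth factor (horizontal axis; co, ES/PA6 co-cultures). Filled points were detected, open points had a detection p of 0.05 or more, and lines are group means. VEGFC lies at 8.81 to 10.37 in co-cultures and is open on all PA6 arrays, whereas FIGF and HGF lie higher on every PA6 array than on any co-culture array.

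ANGPTL4, the secreted inhibitor of lipoprotein lipase, showed the largest change of any member with FGF2 in co-cultures, whereas with BMP4 VEGFC changed more. Without growth factors its level was 7.46 and 8.08. With FGF2 it was 9.98, 10.33 and 9.79. With BMP4 it was 9.44 and 8.72. The FGF2 arrays stood highest, the BMP4 arrays lay between, and the 3 groups did not overlap. ANGPTL4 rose by 2.26 ± 0.30 with FGF2 (adjusted p = 0.0105), a 4.79-fold change that was called under all 13 other settings of the processing and with each array left out. Some of these settings could not alter the change itself, such as averaging the retained probes, of which it had 1, or dropping the fold change limit. Within runs of columns the FGF2 change was 2.52 and 1.71. The BMP4 difference of 1.31 ± 0.33 was not called (adjusted p = 0.114), but it passed the threshold with median scaling, with an intensity-dependent variance prior or with all 16 arrays in the fit, and within the run that held both conditions it was 0.64. The other probe of ANGPTL4 was detected on none of the 16 arrays. Directly compared, BMP4 arrays were lower than FGF2 arrays by a fitted value of -0.95 (95% interval -1.66 to -0.23, adjusted p = 0.233).

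In PA6 alone ANGPTL4 gave no such response. Its levels were 6.90, 7.94 and 7.26 without growth factors, 7.35, 8.01 and 7.86 with FGF2, and 7.63, 7.68 and 7.63 with BMP4, so that the groups overlapped. The FGF2 effect was larger in co-cultures than in PA6 by 1.89 ± 0.42 (adjusted p = 0.0176). For BMP4 the difference between effects was 1.03 (adjusted p = 0.28). Adipocytes are a known site of ANGPTL4 expression. The summed adipocyte markers of the -GFs and FGF2 co-cultures, given above, overlap. Under BMP4 they reached 19600, with 4 of the 5 tested markers detected on all arrays against 1 of 5 without growth factors. Their median change was 2.36, with none called by limma and 0 at an unadjusted p under 0.05, where 2207 of the 14829 genes had such a p. On the PA6 arrays the sum ranged from 2410 to 160100, with the highest value under BMP4. The part of adipocytes in the ANGPTL4 values was not tested.

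PDGFA, a mitogen of mesenchymal precursors, responded differently to BMP4 in both kinds of culture, although neither response was called on its own. In co-cultures the levels were 12.36 and 12.33 without growth factors, 12.23, 12.81 and 12.66 with FGF2, and 13.09 and 13.22 with BMP4. In PA6 they were 13.85, 13.83 and 13.95 without growth factors, 13.57, 13.66 and 13.47 with FGF2, and 13.39, 13.44 and 13.61 with BMP4. Both BMP4 co-cultures exceeded all 5 other co-cultures, while all 6 PA6 cultures with a factor lay below the 3 without. BMP4 was associated with a difference of 0.81 ± 0.23 in co-cultures (adjusted p = 0.152) and of -0.39 ± 0.12 in PA6 (adjusted p = 0.53), and these responses differed from each other by 1.20 ± 0.23 (adjusted p = 0.0134). The difference between responses kept its call with each array left out, between 1.14 and 1.27. In the same test of the difference the 10 stromal markers had a median of 0.83, with 0 called by limma and 4 at an unadjusted p under 0.05, as were 2304 of the 14829 genes. The median BMP4 change of the stromal markers was 0.23 in co-cultures and -0.35 in PA6. The part of the stromal cells in the PDGFA difference was not tested. Within runs of columns the PA6 values were -0.45, -0.39 and -0.34, and the co-culture value was 0.88. The FGF2 difference in PA6 was -0.31 (adjusted p = 0.431), and in co-cultures BMP4 arrays exceeded FGF2 arrays by 0.59 (adjusted p = 0.279).

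ANGPT1, the agonist of TEK, had the smallest p of any member in the factor comparisons of PA6 alone. Without growth factors the PA6 levels were 8.65, 8.63 and 7.93. With FGF2 they were 9.74, 9.61 and 9.99. With BMP4 they were 8.54, 8.37 and 8.38. The 3 FGF2 cultures lay above all 6 others. The fitted FGF2 difference was 1.38 ± 0.21 (95% interval 0.91 to 1.84, unadjusted p = 9.67e-05), the member's place being 13 among all genes ordered by p, and it narrowly missed the threshold (adjusted p = 0.11, limma). It was called without background correction, with an intensity-dependent variance prior or with all 16 arrays in the fit, and within the 3 runs of columns it was 1.10, 0.97 and 2.06. In PA6 FGF2 called 0.027% of all genes, which is 4 genes, and 0 of the 9 members. At an unadjusted p under 0.05 stood 3 members (ANGPT1, FIGF and PDGFA) and 1536 of the 14829 genes. BMP4 in PA6 called 0% of all genes and 0 members in limma, with PDGFA alone of the members and 1334 of all genes at an unadjusted p under 0.05.

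In co-cultures ANGPT1 sat near the limit of detection, at 6.46 and 6.86 without growth factors, 6.84, 6.14 and 6.41 with FGF2, and 7.17 and 6.65 with BMP4, and it was detected on 5 of 7 arrays. Its FGF2 effect differed between both kinds of culture by -1.57 ± 0.35 (adjusted p = 0.0167), the co-cultures showing the smaller value. ANGPT1 was lower in co-cultures than in PA6 by a fitted -1.74 under -GFs, -3.32 under FGF2 and -1.52 under BMP4, and all these differences were called. The other probe of ANGPT1 was detected on 1 co-culture array (-GFs replicate 1, at 7.25) and on none of the 9 PA6 arrays, so that it did not show the PA6 levels of the main probe.

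**Figure D2:**
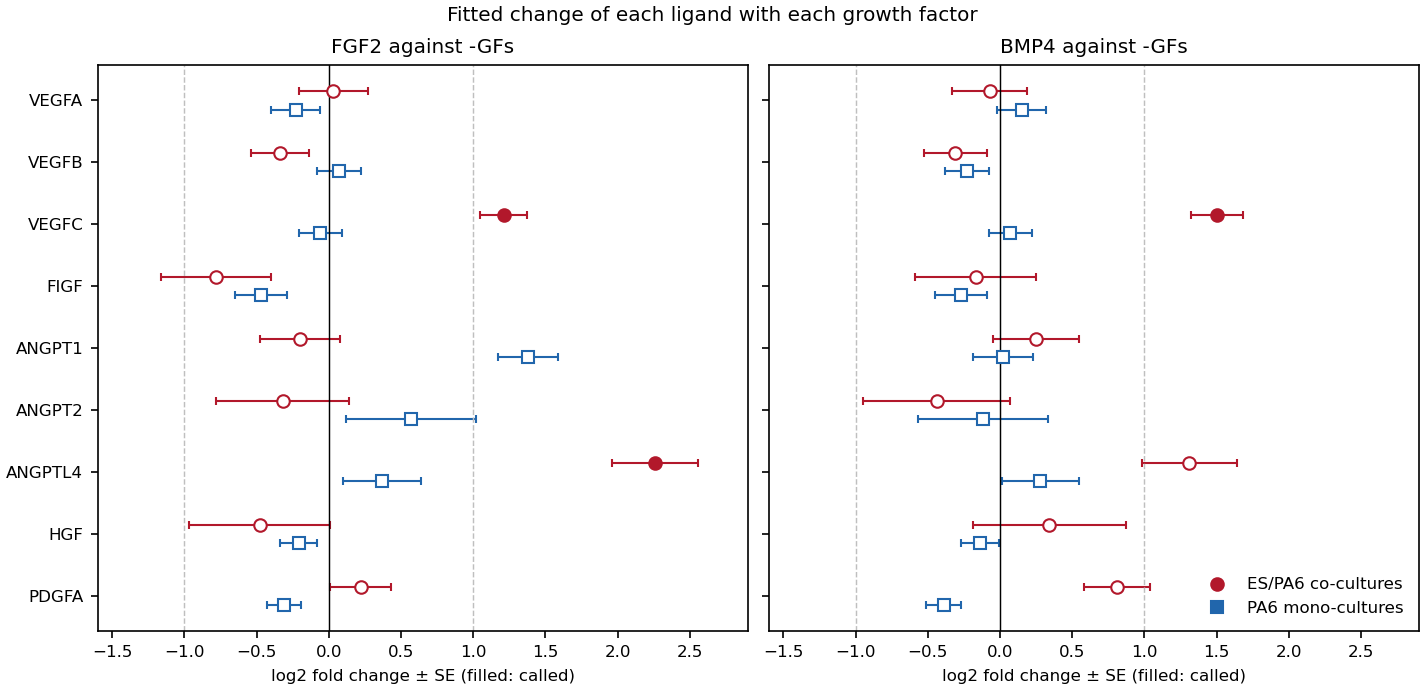
Fitted log2 fold change of each tested ligand (vertical axis) with FGF2 (left) or BMP4 (right) against -GFs, with bars of 1 SE. Circles are ES/PA6 co-cultures, squares are PA6 mono-cultures, filled symbols were called, and dashed lines mark the fold change limit of 1. VEGFC and ANGPTL4 stand out in co-cultures with FGF2, VEGFC with BMP4, and the ANGPT1 square at 1.38 is open because its adjusted p was 0.11.

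VEGFA, the mitogen of endothelium, was the most even of the tested members. Its 3 probes gave 2 that were detected on all 16 arrays and 1 that was detected on none. For the brighter probe the levels in co-cultures were 11.34 and 11.47 without growth factors, 11.48, 11.72 and 11.09 with FGF2, and 11.52 and 11.15 with BMP4. In PA6 they were 11.43, 11.76 and 12, then 11.37, 11.45 and 11.68, then 11.90, 11.70 and 12.04. In the comparisons made here the groups overlapped, except co-cultures and PA6 under BMP4, and group means spanned 0.55. The fitted change in co-cultures was 0.03 with FGF2 (95% interval -0.53 to 0.58) and -0.07 with BMP4 (95% interval -0.68 to 0.54), so that changes of 1 or more in either direction lay outside both intervals on this normalization. In PA6 the differences were -0.23 with FGF2 and 0.15 with BMP4. Co-cultures and PA6 differed by -0.33 (adjusted p = 0.204), -0.07 (adjusted p = 0.761) and -0.55 (adjusted p = 0.0406), in the order of no factor, FGF2 and BMP4, and none reached the fold change limit.

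VEGFB and FIGF, the other detected members of the family, belonged to the PA6 side. VEGFB, which binds FLT1, measured 13.58, 13.52 and 13.54 in PA6 without growth factors and 12.78 and 12.22 in the co-cultures, a called difference of -1.05 ± 0.18 (adjusted p = 0.000204) that fell short of the fold change limit, at -0.77, without the co-culture -GFs replicate 2. With FGF2 and BMP4 the differences were -1.46 and -1.13, both called. FIGF, or VEGFD, measured 14.94, 14.81 and 15.35 in PA6 without factors and 11.73 and 12.28 in co-cultures. The lowest PA6 array of any treatment, at 14.42, stood above the highest co-culture array, at 12.40. FIGF was lower in co-cultures by a fitted -3.03 ± 0.31 without growth factors (adjusted p = 1.54e-06), -3.34 with FGF2 and -2.94 with BMP4, a 7.65-fold to 10.1-fold difference. With each array left out its BMP4 difference ran from -3.5 to -2.37. In PA6 FIGF was 14.79, 14.47 and 14.42 with FGF2, all below the 3 arrays without factors, with a fitted difference of -0.47 (adjusted p = 0.419). PGF, the placental member that also binds FLT1, was not detected on any of the 16 arrays, with intensities of 105.5 to 217.7 from 1 probe, and was not tested.

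HGF, the mesenchymal ligand of MET, showed the largest difference between both kinds of culture in the direction of PA6. Its main probe measured 12.22, 12.09 and 12.29 in PA6 without growth factors, 11.86, 11.95 and 12.16 with FGF2, and 12.20, 12.06 and 11.92 with BMP4. In co-cultures it measured 7.73 and 8.33, then 7.34, 7.16 and 8.18, then 7.64 and 9.11. No PA6 array fell below 11.86 and no co-culture array exceeded 9.11. HGF was lower in co-cultures by a fitted -4.17 ± 0.37 without growth factors (adjusted p = 4.2e-07), -4.43 ± 0.33 with FGF2 and -3.68 ± 0.37 with BMP4, or 12.9-fold to 21.6-fold. The BMP4 difference ran from -4.42 to -2.95 with each array left out. The other 2 probes of HGF gave called differences of -3.62 and -3.23 without growth factors, -2.98 and -3.02 with FGF2, and -2.59 and -3.17 with BMP4. The dimmest of them, the second of each pair, was detected on all 9 PA6 arrays and on no co-culture array. Its values in co-cultures thus lie below detection, and its differences are not measured sizes.

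ANGPT2, the antagonist of TEK, went the other way but with a wide spread. It was detected on all 7 co-culture arrays, at 6.98 and 8.54 without growth factors, 7.06, 7.72 and 7.53 with FGF2, and 6.99 and 7.66 with BMP4. In PA6 it was detected on 2 of 9 arrays and measured 6.09, 7.01 and 5.72, then 6.09, 7.82 and 6.63, then 5.98, 6.39 and 6.10. No PA6 group had it detected on all arrays, so ANGPT2 was retained for testing through the co-cultures alone. The groups overlapped without growth factors and with FGF2, and not with BMP4. The other probe of ANGPT2 was detected on 2 co-culture arrays and on none of the PA6 arrays. ANGPT2 was higher in co-cultures by 1.48 ± 0.53 without growth factors (adjusted p = 0.0246) and by at least 1.39-fold with BMP4 (adjusted p = 0.0696), whereas the FGF2 difference was 0.59 (adjusted p = 0.284). These calls rested on single arrays and on the processing. The difference without growth factors was 0.71 without the co-culture -GFs replicate 2. Without background correction neither was called, at 0.88 without growth factors and 0.64 with BMP4. Without the detection filter the BMP4 call was lost too. The BMP4 difference was no longer called without co-culture replicate 2 (0.83), PA6 replicate 1 (1.08) or PA6 replicate 3 (1.14), nor with runs of columns as a block (0.92), and the FGF2 difference was called at 1.07 without PA6 replicate 2.

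Over the tested members, the co-cultures without growth factors were called lower than PA6 for 5 of 9 (VEGFB, FIGF, ANGPT1, HGF and PDGFA) and higher for 2 of 9 (VEGFC and ANGPT2), where 44.1% of all genes were called, 21.8% lower and 22.3% higher. With FGF2 the counts were 4 lower and 2 higher, where 46.4% of all genes were called (22.9% lower, 23.4% higher), and with BMP4 4 lower and 3 higher, where 42.4% were called (20.3% lower, 22% higher). ANGPTL4 joined the higher members in the presence of a factor, at 2.29 ± 0.28 with FGF2 (adjusted p = 7.41e-06) and 1.44 ± 0.32 with BMP4 (adjusted p = 0.00138). PDGFA was called lower by -1.53 ± 0.16 without growth factors (adjusted p = 2.69e-06), stood at -1.0 ± 0.15 with FGF2 (adjusted p = 3.95e-05), just within the fold change limit, and at -0.33 with BMP4 (adjusted p = 0.103). The FGF2 value of PDGFA passed the limit, at -1.0 to -1.12, without co-culture replicate 2 or 3 or PA6 replicate 1 or 3, and at -1.39 after median scaling.

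The stromal fibroblast markers moved with these differences. Of 10 tested, 8 were called lower in -GFs co-cultures, 8 under FGF2 and 6 under BMP4, and their median differences were -2.21, -1.81 and -1.43. The median over all members was -1.05, -1.0 and -0.55, and over all genes 0.03, -0.04 and 0.01. FIGF and HGF lay below the stromal median in each condition, while VEGFB and PDGFA lay above it. ANGPT1 lay above it without growth factors (-1.74) and below it with FGF2 (-3.32) and BMP4 (-1.52). The part of the stromal share of RNA in the ligand differences was not tested.

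**Figure D3:**
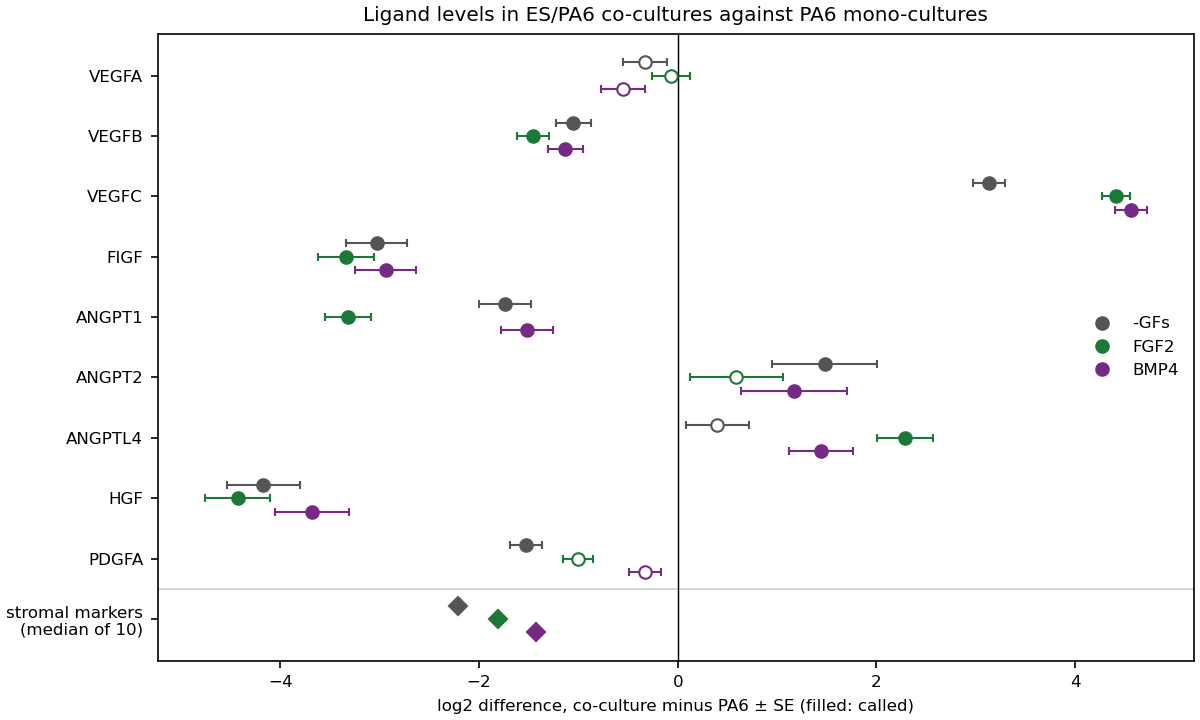
Fitted log2 level in ES/PA6 co-cultures minus that in PA6 alone (horizontal axis, bars of 1 SE) for each tested ligand, in grey for -GFs, green for FGF2 and purple for BMP4. Filled circles were called, and diamonds give the median of 10 stromal fibroblast markers (-2.21, -1.81 and -1.43). HGF and FIGF lie left of the stromal medians, VEGFC, ANGPT2 and ANGPTL4 lie right of 0, and VEGFC values use PA6 signals below detection.

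Among the receptors of these ligands, 7 of 10 were tested, and KDR, FLT4 and TIE1 were detected on too few arrays. TEK, the receptor of the angiopoietins, was the only receptor called for a factor. It was below detection in both co-cultures without growth factors (6.35 and 5.94), and measured 8.82, 9.59 and 8.85 with FGF2 and 8.28 and 8.22 with BMP4. TEK was retained for testing only through these co-cultures with a factor, where it was high, so its adjusted p values carry that selection. TEK exceeded the -GFs level by at least 5.86-fold under FGF2 (adjusted p = 0.00451) and by at least 3.28-fold under BMP4 (adjusted p = 0.026). The BMP4 change was no longer called without co-culture -GFs replicate 2 (1.91), without BMP4 replicate 1 (2.08) or with all 16 arrays in the fit. In PA6 the TEK levels scattered from 6.12 to 8.97 and overlapped between all 3 groups. TEK was undetected on all 3 PA6 arrays with BMP4 (6.12, 6.26 and 6.60) as in the -GFs co-cultures, so no size is given for the difference between the responses of both kinds of culture.

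Receptors were otherwise divided by culture. Without growth factors 6 of the 7 were called lower in co-cultures than in PA6 and 0 higher, with a median of -2.42. In that comparison 21.8% of all genes were called lower and 22.3% higher, and the stromal markers had a median of -2.21. With FGF2, as with BMP4, 5 receptors were called lower and 2 higher. Without growth factors the largest differences were those of PDGFRA (-3.75 ± 0.25), PDGFRB (-3.49 ± 0.34) and FLT1 (-2.89 ± 0.34), all with an adjusted p of at most 6.45e-06. PDGFRA, the receptor of PDGFA, and its ligand were therefore both lower in co-cultures. NRP2, a co-receptor of VEGFC, was below detection on all 9 PA6 arrays. It was retained for testing only through the BMP4 co-cultures, and MET only through PA6 groups, so their adjusted p values carry that selection. It was higher in co-cultures by at least 1.22-fold with FGF2 (adjusted p = 0.00127) and at least 1.53-fold with BMP4 (adjusted p = 0.00102). MET, the receptor of HGF, was below detection on all co-culture arrays with a factor and lower there by at least 1.39-fold with FGF2 and at least 2.20-fold with BMP4.

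**Figure D4:**
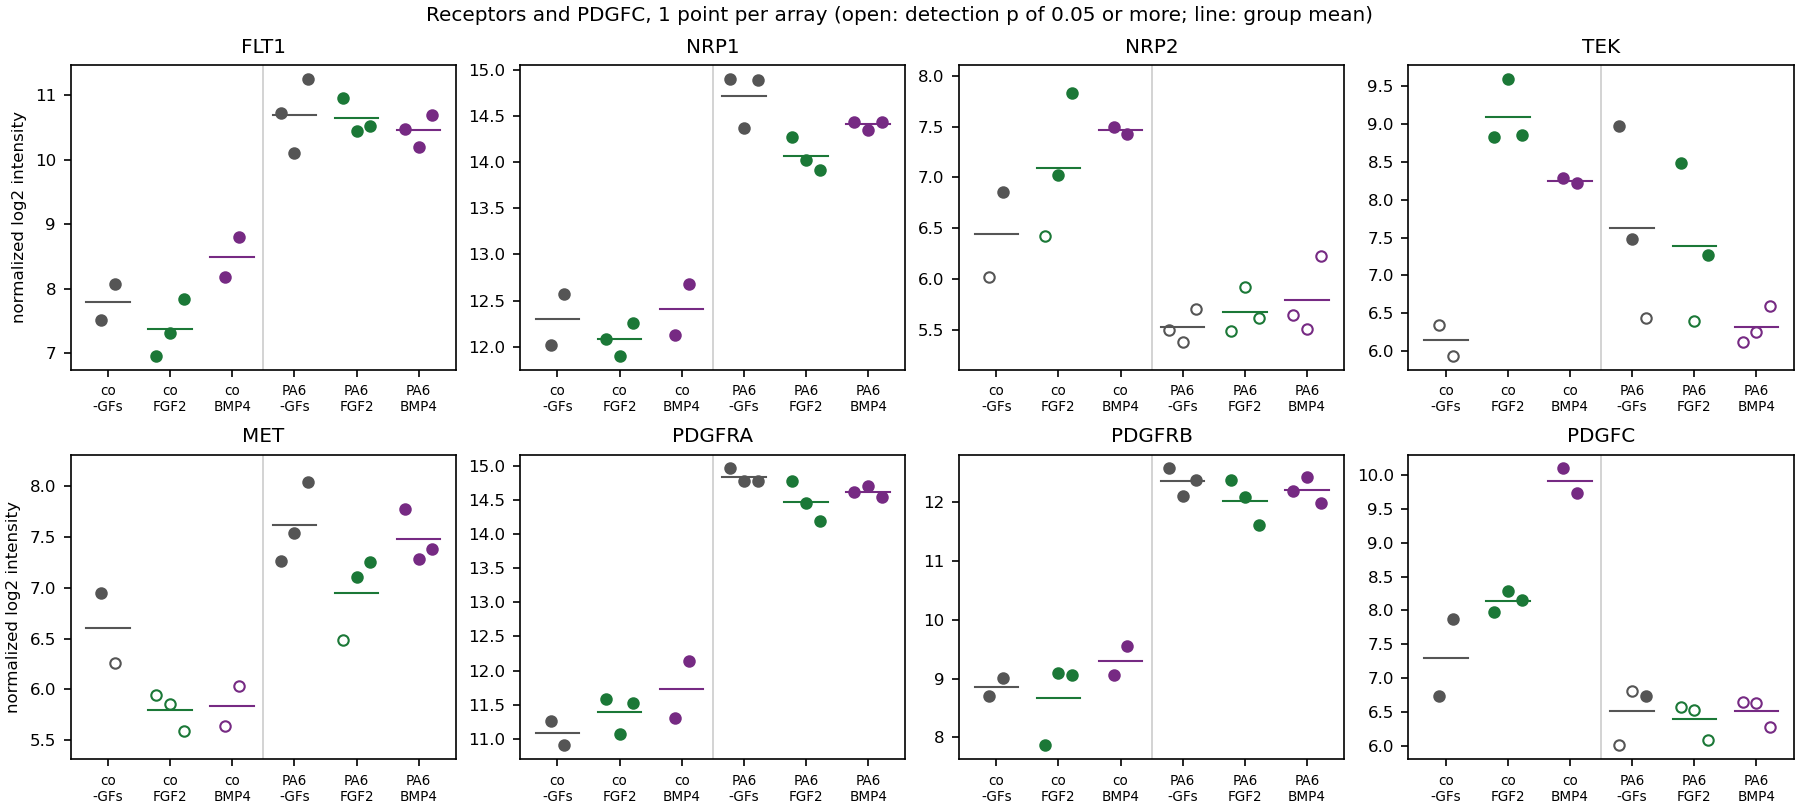
Normalized log2 intensity of 7 tested receptors and of PDGFC on each array (vertical axis), by culture and growth factor (horizontal axis). Filled points were detected, open points had a detection p of 0.05 or more, and lines are group means. TEK is open in both co-cultures without growth factors and at 8.22 to 9.59 with a factor, and PDGFC reaches 9.73 and 10.10 in co-cultures with BMP4.

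Of 14 related ligands 8 were tested, and PDGFC was the only one called for a factor in co-cultures. PDGFC, which like PDGFA signals through PDGFRA, measured 6.73 and 7.87 without growth factors, 7.98, 8.29 and 8.15 with FGF2, and 10.10 and 9.73 with BMP4. The BMP4 cultures stood above all others. PDGFC rose by 2.61 ± 0.37 with BMP4 (adjusted p = 0.0237) and exceeded FGF2 by 1.77 ± 0.34 (adjusted p = 0.0915). The comparison of both factors called 1.44% of all genes and 0 of the 9 members. ANGPTL4 and PDGFA had an unadjusted p under 0.05 there, as did 2104 of the 14829 genes. The rise with BMP4 was not called without BMP4 replicate 1 (2.43) or when all retained probes of the gene were averaged (1.12). The excess over FGF2 lost its call without any one of the 5 arrays of both groups (1.59 to 1.96) and with the replicate number as a block (1.77). It was not called either as the mean of its probes (0.83), with normalization within each kind of culture (1.62) or without the detection filter (1.77). In PA6 PDGFC was detected on 1 of 9 arrays, and its BMP4 response differed between both kinds of culture by 2.61 ± 0.45 (adjusted p = 0.00579), or by 0.66, not called, when its probes were averaged. The PA6 side of this difference rests mostly on signals below detection.

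Regulators of ligand activity numbered 14, of which 11 were tested. ST14, a membrane protease that activates HGF, rose with FGF2 by 1.67 ± 0.26 (adjusted p = 0.0168) and with BMP4 by 1.42 ± 0.29 (adjusted p = 0.0616). ST14 was retained for testing only through the co-cultures with a factor, so these adjusted p values carry that selection. SPINT1, an inhibitor of HGF activation, rose with FGF2 by 1.38 ± 0.35 (adjusted p = 0.0679). The ST14 rise with FGF2 was lost without co-culture -GFs replicate 1 (1.59), its BMP4 rise without either -GFs array, FGF2 replicate 3 or BMP4 replicate 1 (1.09 to 1.49) and with the replicate number as a block (1.42), and the SPINT1 rise without -GFs replicate 2, FGF2 replicate 1 or FGF2 replicate 2 (0.89 to 1.35). Without background correction the ST14 changes fell short of the fold change limit (0.92 with FGF2 and 0.77 with BMP4). Without the detection filter neither ST14 with BMP4 (adjusted p = 0.121) nor SPINT1 (adjusted p = 0.129) was called, and neither passed an adjusted p of 0.05. SPINT1 was not called either as the mean of its probes (1.35, adjusted p = 0.103). Without growth factors 6 of the 11 were called lower in co-cultures than in PA6 and 2 higher, where 21.8% of all genes were called lower and 22.3% higher. The largest differences were those of the vessel inhibitor THBS2 (-3.34), SPINT1 (3.18) and the vessel inhibitor THBS1 (-3.13).

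Hypoxia-regulated genes, to which VEGFA and ANGPTL4 also belong in many cells, were listed apart from the members. Of 16 such genes 12 were tested, and 0 were called with FGF2 or with BMP4 in co-cultures by limma, with 0 and 1 at an unadjusted p under 0.05 (medians 0.15 and 0.18, against -0.0575 and -0.00152 over all genes). Of the 14829 genes, 3373 and 2207 had such a p. Between both kinds of culture without growth factors, 8 of the 12 were called higher in co-cultures and 1 lower, with a median of 2.33. Of all genes 22.3% were called higher there and 21.8% lower. VLDLR, a lipoprotein receptor, PDK1, a kinase that restrains mitochondrial pyruvate use, and EGLN3, a prolyl hydroxylase of the hypoxia pathway, were below detection in PA6 without growth factors. They were at least 28.2-fold, 17.7-fold and 12.2-fold higher in co-cultures, through which alone they were retained for testing. NDRG1 was the gene called lower (-3.32), named here after its values were seen. The fitted difference of VEGFA in the same comparison was -0.33 and was not called.

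Over all 16 arrays, the gene most like each member was described by Pearson's r, which here mostly reflects the division between both kinds of culture. FIGF and HGF were the members most like each other (r = 0.99). Of all genes, FIGF was most like FMOD (r = 0.992), a matrix proteoglycan, and HGF most like CLCN7 (r = 0.996), a lysosomal chloride transporter. VEGFB was most like ZEB1 (r = 0.977), ANGPT1 most like BTC (r = 0.97) and PDGFA most like FURIN (r = 0.962), a protease that processes several growth factors. VEGFC was most like a gene named only as a RIKEN clone, 2310014G06RIK (r = 0.994), ANGPTL4 most like another RIKEN clone (r = 0.976) and ANGPT2 most like AI836003 (r = 0.88), none of which carries a functional name on the array.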

How the data were processed

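RNA of 16 cultures in 6 groups was measured on Illumina MouseWG-6 v2.0 BeadChips, 1 array per culture. The authors processed the scans with GenomeStudio 2011.01 per the labels and deposited average bead intensities, not normalized, with a detection p-value per probe. No genome build is given in the sources used here. Intensities were background corrected (normexp from detection p-values), quantile normalized and log2 transformed with an offset of 16 (neqc, limma 3.58.1, R 4.3.3). Of 45281 probes, 20880 had a detection p under 0.05 on all arrays of at least 1 group, and each of 14829 genes took the value of its brightest retained probe (largest mean). Linear models (lmFit, eBayes) were fitted to the 7 co-culture arrays, the 9 PA6 arrays or, for comparisons between cultures, all 16, with Benjamini-Hochberg adjustment over all genes. Where a gene was undetected on all arrays of a group, the fold is a bound. Bright probes compress folds, and array number limits precision. The labels speak of biological replicates without naming separate preparations. Members, marker and pathway lists were chosen with earlier results of these data known, and the pathway genes named are those called, up to 3 per list and comparison. Alternatives covered normalization, background, filters, probe choice, variance prior, thresholds, blocks and each array left out. The fits were tested on simulated data.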

Additional observations from a re-analysis of the deposited data

Results flagged for a closer look

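The response to a growth factor differed between co-cultures and PA6 alone, by the interaction term fitted to all 16 arrays, for 3 ligands with FGF2 and 2 with BMP4. For FGF2 the difference between responses was 1.28 for VEGFC, 1.89 for ANGPTL4 and -1.57 for ANGPT1, the negative sign meaning a smaller value in co-cultures. For BMP4 it was 1.43 for VEGFC and 1.20 for PDGFA. VEGFC was undetected on every PA6 array, so its values there are background signal. ANGPT1 was near the limit of detection in co-cultures.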

How the results depend on the processing

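Of the 28 member changes called, none reversed in 722 alternative settings and 706 of these kept the call. Not all of these settings could have done otherwise. Dropping the fold change limit only relaxes the rule. Averaging probes or taking the dimmest leaves a member with 1 retained probe at the same value, as does leaving out an array of a group not compared. In co-cultures FGF2 called 1 member in place of 2 (VEGFC was lost) after median scaling or without background correction, and 1 when detection on all 16 arrays was required, which removes VEGFC, ANGPT1 and ANGPT2 from the test. BMP4 called 2 in place of 1 (ANGPTL4 was added) with median scaling, a variance prior with trend or all 16 arrays in the fit, and 0 under the detection requirement. FGF2 in PA6 called 1 in place of 0 (ANGPT1) without background correction, with the trend or with all 16 arrays in the fit. Between cultures the detection requirement left 4 of 7 calls without growth factors and 4 of 7 with BMP4, where 4 also remained without background correction, and it left 1 of 3 differences between FGF2 responses and 1 of 2 between BMP4 responses. Leaving out each array in turn gave 0 to 1 calls for BMP4 in co-cultures.

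The sign of VEGFA depended on the setting. Its FGF2 change in co-cultures was -0.19 after median scaling, -0.10 with runs of columns as a block and -0.12 to 0.20 with each array left out. Its BMP4 change was 0.01 after median scaling, 0.15 as the mean of probes, 0.36 for the dimmer probe and -0.26 to 0.12 with each array left out. In PA6 the BMP4 value was 0.00 after median scaling, and the difference between cultures with FGF2 was -0.22 to 0.10 with each array left out. Median scaling moved the median of all genes to -0.21 for FGF2 and 0.09 for BMP4 in co-cultures, to 0.29 for BMP4 against FGF2, and to -0.10 and -0.14 in PA6. For VEGFC the difference between FGF2 responses was not called under median scaling (1.08).

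With the replicate number as a block the counts of members called were 2, 1 and 0 in co-cultures, 0 and 0 in PA6, 7, 6 and 7 between cultures and 3 and 2 for the differences between responses, as without it, although all genes called went from 556 to 258 for BMP4 in co-cultures, from 214 to 11 for BMP4 against FGF2 and from 4 to 23 for FGF2 in PA6. The labels describe 1 well of each kind per biological replicate but do not say that a number stands for a shared preparation. Deviations from group means correlated at 0.0697 to 0.199 for the 9 same-numbered pairs of PA6 arrays and at -0.136 to -0.0122 for the 18 others, and every PA6 array correlated best with its own number, so the PA6 numbers, which coincide there with the runs of columns, may mark a shared preparation or run. In co-cultures same-numbered pairs correlated at -0.199 to 0.283. The 5 co-culture pairs that shared a run of columns correlated at 0.0976 to 0.283, and the 11 others at -0.283 to 0.0976. With runs of columns as a block, members called in co-cultures stayed at 2, 1 and 0. All genes called went from 1100 to 1054 for FGF2, from 556 to 596 for BMP4 and from 214 to 560 for BMP4 against FGF2. The fits without a block are the main ones, and under the replicate block ANGPT1 with FGF2 in PA6 stayed short of the threshold (1.38, adjusted p = 0.112). With 2 or 3 arrays per group, small changes were not detectable, and signals near background limit ANGPT1 in co-cultures, ANGPT2 in PA6 and PGF throughout.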
